A study of Mus musculus with 24 samples.

Results

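The genes described here encode the subunits of potassium channels in the mouse pineal gland and retina: the pores, their silent and accessory subunits and 3 RNA genes named after them. They are the genes on the array whose symbol starts with Kcn, other than Kcnc1, Kcnk3, Kcnj10, Kcnj13 and Kcne2, which makes 79 of the 18193 genes that a probe set names alone. The members were taken by symbol with no cut on a measured value, but the set was chosen with earlier results of these data known. Where several probe sets name a gene, the one brightest on average across the arrays was read; the 79 members have 157 probe sets and 44 of them have more than 1.

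A potassium channel lets potassium ions leave or enter a cell and so sets its resting potential, ends its spikes and shapes its graded responses. Voltage-gated pores (Kcna, Kcnc, Kcnd, Kcnh and Kcnq genes) open on depolarisation, silent subunits (Kcnf, Kcng, Kcns and Kcnv genes) form no channel alone but alter the pores they join, and accessory subunits (Kcnab, Kcne, Kcnip and Kcnmb genes) alter gating or traffic. Calcium- and sodium-activated pores (Kcnma, Kcnn, Kcnt and Kcnu genes) follow ion levels inside the cell, inward rectifiers (Kcnj genes) hold the resting potential and in part follow G proteins or ATP, and tandem-pore leak channels (Kcnk genes) carry the background current. In the retina, photoreceptor inner segments, bipolar cells, ganglion cells and Müller glia carry different sets of these channels; pinealocytes of mammals, related to photoreceptors by descent, set melatonin output under a nightly noradrenergic signal.

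Affymetrix Mouse 430 2.0 arrays profiled the retina and the pineal gland of mice on the C57BL/6J strain, both sexes, aged 2 months and kept in 12 h of light and 12 h of dark. The cKO mice were NeuroD1flox/flox::Crx-Cre+/-, in which Cre driven by the Crx promoter, active in photoreceptors and pinealocytes, deletes the floxed gene for NeuroD1, a basic helix-loop-helix transcription factor. The controls carried the same floxed alleles with no Cre transgene (NeuroD1flox/flox, Crx-Cre-/-), so loss of NeuroD1 and presence of Cre cannot be told apart. Each genotype and tissue was collected at ZT20, in the dark under dim red light, and at ZT6, in the light (ZT counts hours from lights on), which gave 8 groups of 3 pools of 6 glands or retinas, 24 arrays in all. Fewer cells of a type and less RNA per cell cannot be told apart in such pools.

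Values are linear array signals as deposited, and differences are on the log2(signal + 16) scale with their standard error. They were tested with limma over all genes of a fit, and a gene was called at a Benjamini-Hochberg adjusted p under 0.05. Between genotypes, whole arrays differed: array medians were 134, 183.1 and 142 in cKO retina at ZT6, against 125, 124 and 109 in control retina at ZT6, so the retinal results are set beside the median of all genes and beside values with arrays centred or quantile-normalised. In the pineal gland the offset mostly ran the other way. Medians were 131, 115.5 and 118 in cKO glands at ZT6, against 130, 146.9 and 158.8 in control glands at ZT6. At ZT20 they were 107.1, 107.7 and 129.3 in cKO glands, against 132.3, 156.4 and 145.4 in control glands. Both offsets enter the difference between the tissues' cKO effects. Neurod1 was at 83.5, 29.1 and 30.9 in cKO pineal gland at ZT6, against a control mean of 4974, and at 639, 774 and 293 in cKO retina at ZT6, against a control mean of 6407. At ZT20 the cKO pools were uneven: Neurod1 kept 0.621%, 52.4% and 26.5% of its control mean in cKO pineal pools 1, 2 and 3, and 5.1%, 49.7% and 49.5% in cKO retina pools 1, 2 and 3. Tph1, which encodes the rate-limiting enzyme of serotonin synthesis and marks pinealocytes, averaged 123 in control retina and 11840 in control pineal gland, and the rod transcription factor gene Nrl averaged 9013 in control retina and 327 in control pineal gland. The rod transducin gene Gnat1 was uneven between pineal pools, at 2234 in cKO pool 3 at ZT6 (115 and 76.9 in pools 1 and 2) and at 1267 and 3830 in control pools 2 and 3 at ZT6 (72.6 in pool 1). At ZT20 Gnat1 was at 151, 447.1 and 620.5 in cKO pineal pools 1, 2 and 3 and at 957.5, 731.5 and 171.5 in control pineal pools 1, 2 and 3.

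A gene was tested where its signal was above the array median on at least 3 arrays of the fit. That kept 42 of the 79 members in the retina and 25 in the pineal gland, of which 20 passed in both. Kcne4, Kcnk5, Kcnk6, Kcnt2 and Kcnu1 passed in the pineal gland alone and 22 members in the retina alone. Of the 21 voltage-gated pores, 14 passed in the retina and 8 in the pineal gland; of the 14 accessory subunits, 10 passed in the retina and 4 in the pineal gland; of the 13 inward rectifiers, 6 passed in the retina and 2 in the pineal gland. The 11 tandem-pore channels were the class with more members tested in the pineal gland, where 5 passed, than in the retina, where 3 did. The 32 members that passed in neither tissue had group means of 0.2 to 136.9, and 1 of them (Kcnn4) was above the median of any array.

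The first question was which potassium channel genes distinguish the control retina from the control pineal gland. Averaged over both times, 44 of the 47 members tested over both tissues were called, 33 higher and 11 lower in the retina, where 74.3% of all 12928 genes tested were called, 23.1% of them higher and 51.2% lower. The filter keeps a gene through the tissue where it is bright, so those 47 had in part to differ. With no filter, 44 of all 79 members were higher and 22 lower in the retina, against 19.7% higher and 44.1% lower of all 18193 genes. Among the 20 members that passed in each tissue alone, 11 were higher and 7 lower, against 19.7% and 50.6% of the 10820 such genes. The median of all genes lay at -0.273, so member values run against that offset.

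**Figure D1:**
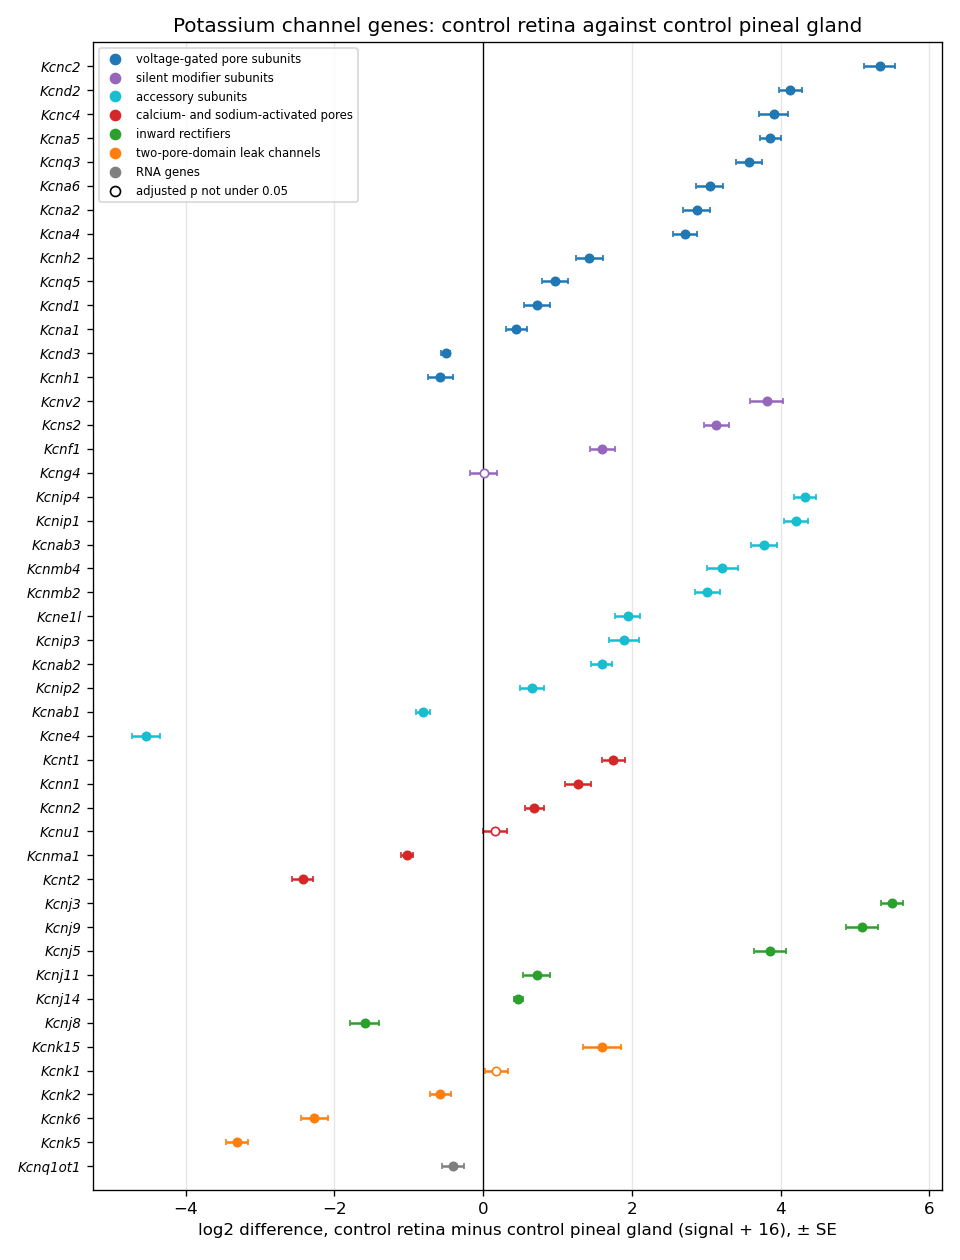
Difference between control retina and control pineal gland, averaged over ZT20 and ZT6, on the log2(signal + 16) scale for the 47 members tested, with bars of 1 standard error, coloured by channel class; open points did not pass the test. Kcnj3 lies highest at 5.50 and Kcne4 lowest at -4.54, and Kcng4, Kcnk1 and Kcnu1 are the open points near 0.

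G protein-gated inward rectifiers were far higher in the retina. Kcnj3, a pore subunit of these channels, was at 1451, 1654 and 1753 in control retina at ZT20 and 1380, 1178 and 1519 at ZT6, against 15.4, 15.8 and 14.4 in control pineal gland at ZT20 and 12.7, 18.5 and 27 at ZT6. Its difference was 5.50 ± 0.15 (adjusted p = 1.38e-22, limma), a ratio of 45.2 on the log2(signal + 16) scale, with no overlap. The pineal signal lies near the added 16, so the size of this ratio depends on that setting. Kcnj9, a second subunit of the same channels, was at 515.5 to 1039 in the 6 control retina pools and at 1.4 to 16 in the 6 control pineal pools, a difference of 5.09 ± 0.22 (adjusted p = 1.11e-18). Kcnj5, the third such gene to pass, differed by 3.86 ± 0.21 (adjusted p = 5.82e-16). All 3 were dim in the pineal gland, below the array medians, so these differences rest on the retinal signal.

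Of the voltage-gated pores, Kcnc2 and Kcnd2 were also far higher in the retina. Kcnc2, a fast delayed rectifier of repetitively firing neurons, was at 3060, 3339 and 3457 in control retina at ZT20 and 3479, 3172 and 3279 at ZT6, against 55.3, 59.2 and 64.9 in control pineal gland at ZT20 and 48.9, 59.4 and 129.5 at ZT6. The difference was 5.33 ± 0.21 (adjusted p = 1.61e-19). The highest pineal pools for Kcnc2 were pool 3 of the control and pool 3 of the cKO at ZT6 (134, against 50.3 and 35.3 in the other cKO pools), both pools with high Gnat1; what part retinal RNA has in this was not tested. Kcnd2, an A-type pore, was at 402 to 675 in control retina and 7.5 to 16 in control pineal gland (4.13 ± 0.16, adjusted p = 8.53e-20). Kcnip4 and Kcnip1, calcium-binding subunits of the Kcnd pores, differed by 4.33 ± 0.15 and 4.21 ± 0.16 (adjusted p = 9.8e-21 and 1.49e-19).

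Kcnd3, the sister A-type pore of Kcnd2, was lower in the retina and bright in both tissues: it was at 4642 to 6056 in control retina and 7003 to 8315 in control pineal gland (-0.50 ± 0.06, adjusted p = 5.16e-09). Other pores that give A-type currents, Kcnd1, Kcna4 and Kcnc4, were higher in the retina, by 0.73, 2.71 and 3.90. Kcnip3, the subunit also known as a calcium-dependent transcriptional repressor, was at 185 to 353 in control retina and 36.4 to 98.9 in control pineal gland (1.90 ± 0.20, adjusted p = 9.43e-10). Kcna5, a delayed rectifier of the Shaker type, differed by 3.86 ± 0.15 (adjusted p = 7.12e-20). Kcnv2, the silent subunit whose loss in humans causes a cone dystrophy with an altered rod response, was at 458 to 732 in control retina and 1 to 56.8 in control pineal gland (3.81 ± 0.23, adjusted p = 2.66e-15).

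On the pineal side stood Kcne4, Kcnk5, Kcnt2 and Kcnk6. Kcne4, a small subunit that damps several voltage-gated and calcium-activated pores, was at 59.5, 52.3 and 26.3 in control retina at ZT20 and 30, 26.3 and 63.4 at ZT6, against 1252, 1546 and 1459 in control pineal gland at ZT20 and 979, 1311 and 1346 at ZT6. Its difference was -4.54 ± 0.19 (adjusted p = 7.52e-19) and the tissues did not overlap. Kcnk5, a leak channel closed by acid, was at 12.1 to 23.3 in control retina and 245 to 419 in control pineal gland (-3.31 ± 0.15, adjusted p = 7.62e-18). Kcnt2, a sodium-activated pore, was at 62.8 to 92.1 in control retina and 352.5 to 619 in control pineal gland (-2.42 ± 0.14, adjusted p = 1.96e-15). Kcnk6, a leak channel, was at 14 to 20.8 in control retina and 89.9 to 183.4 in control pineal gland (-2.27 ± 0.19, adjusted p = 4.02e-12). Kcnj8, the pore of vascular ATP-sensitive channels, differed by -1.59 ± 0.19 (adjusted p = 1.84e-08). Markers of other cells were also lower in the retina: 6 of 6 fibroblast markers (median -5.801), 5 of 6 endothelial and mural markers (median -2.397) and 6 of 6 microglia markers (median -2.659). So were 7 of 8 choroid plexus markers (median -2.527), with 1 higher, and 5 of 5 neutrophil and marrow markers (median -4.787). Their part in these differences was not tested.

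Several members were bright in both tissues and differed less. Kcnma1, the large-conductance calcium-activated pore, was at 1529 to 2962 in control retina and 3828 to 4801 in control pineal gland (-1.03 ± 0.08, adjusted p = 2.42e-12). Its probe sets disagree here: the 4 others were higher in the retina, by 0.72 to 1.05, and 3 of them were above the median on all 24 arrays. The direction of Kcnma1 between the tissues therefore depends on the probe set read. Kcnab1, a cytoplasmic subunit of the Kcna pores, averaged 1815 in control retina and 3195 in control pineal gland (-0.80 ± 0.09, adjusted p = 8.88e-09). Kcnj14, a strong inward rectifier, was at 6440 to 7551 in control retina and 4643 to 6395 in control pineal gland (0.48 ± 0.07, adjusted p = 2.31e-07). Kcnh1, the ether-à-go-go pore described in rod inner segments, averaged 324.5 in control retina and 482 in control pineal gland (-0.58 ± 0.17, adjusted p = 0.00296) with overlapping pools. The 3 members not called were Kcng4 (0.01 ± 0.18), Kcnk1 (0.18 ± 0.15) and Kcnu1 (0.16 ± 0.16); Kcnk1 and Kcnu1 were called higher in the retina with arrays centred (0.40 and 0.38) and after quantile normalisation (0.43 and 0.38). The RNA gene Kcnq1ot1, the imprinted antisense transcript of the Kcnq1 locus, differed by -0.40 ± 0.15 (adjusted p = 0.0165), and was not called without control retina pool 1 of ZT6 (adjusted p = 0.0605), with arrays centred (-0.18, adjusted p = 0.211) or after quantile normalisation (-0.16, adjusted p = 0.373).

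The next comparison asked how loss of NeuroD1 affects these genes in the retina at ZT6. Of the 42 members tested, 17 rose and 1 fell in cKO retina, where 23.9% of all 11748 genes tested were called, 22.8% higher and 1.12% lower. The members' median difference was 0.513, against 0.286 for all genes; 40 of the 42 lay above 0, as did 85.6% of all genes, and 30 of the 42 lay above the median of all genes. By class, 9 of 14 voltage-gated pores, 3 of 4 silent subunits, 2 of 10 accessory subunits, 1 of 4 calcium- or sodium-activated pores, 1 of 6 inward rectifiers and 1 of 3 leak channels rose. When each array was centred on its median, 4 rose and 1 fell, where 6.66% of all genes were higher and 6.72% lower. After quantile normalisation 6 rose and 1 fell, where 9.54% of all genes were higher and 7.13% lower. Kcng4, Kcnd2, Kcna2, Kcnk1 and Kcnj14 were called under all 3 scalings; Kcna5 and Kcna6 passed as deposited and after quantile normalisation, and the other 11 as deposited alone.

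**Figure D2:**
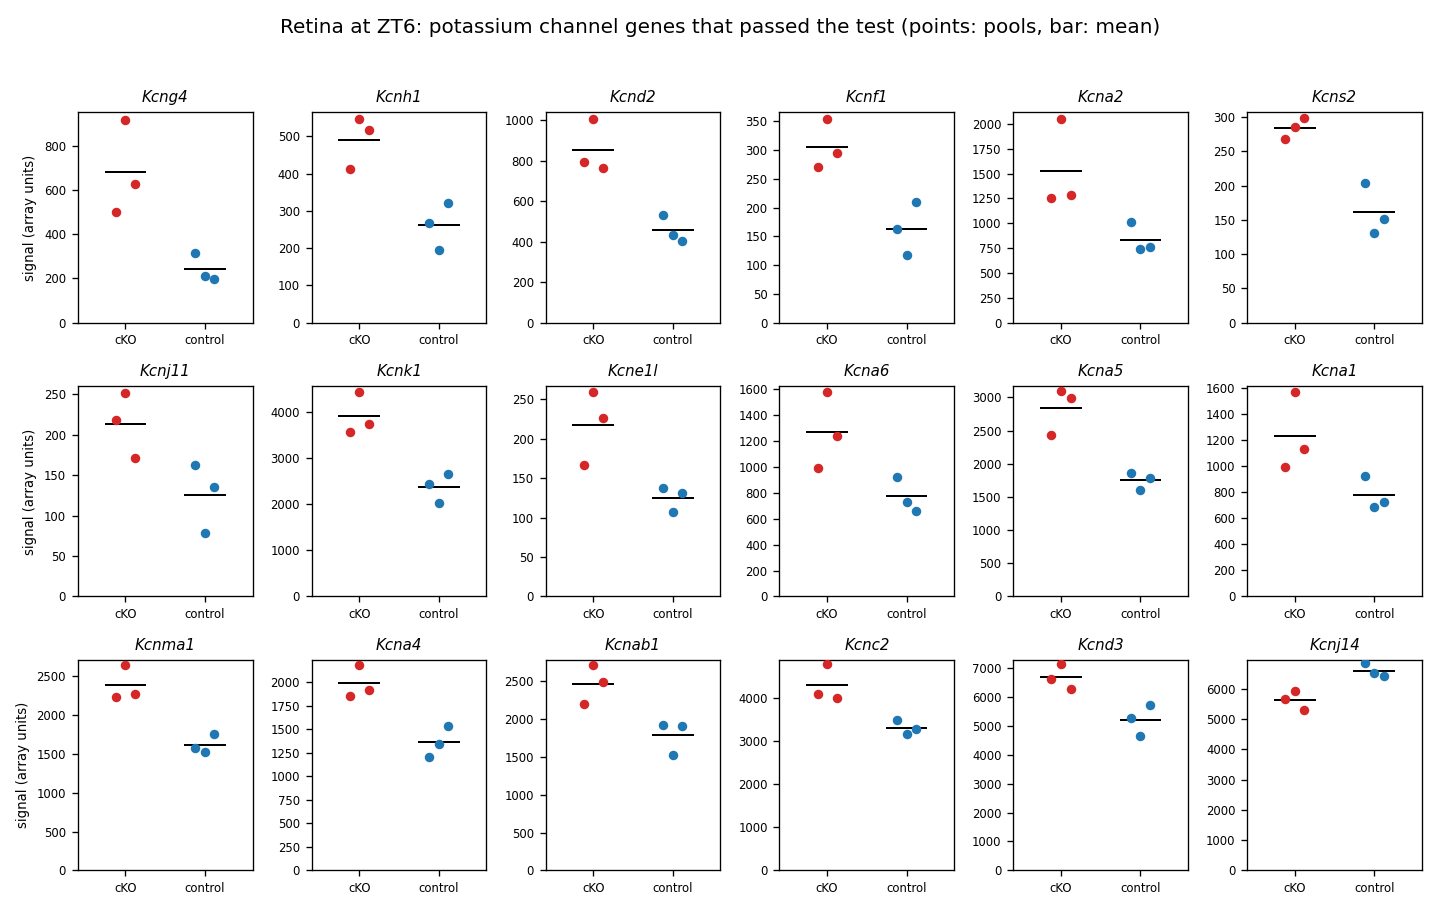
Signal (linear axis, a panel per gene) of the 18 members called in the retina at ZT6, each pool a point, cKO pools left of control pools within each gene. In Kcng4 the cKO pools are at 501 to 915 and the control pools at 197 to 316, and Kcnj14 is the member whose cKO pools lie below its control pools.

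Kcng4, a silent subunit, was at 501, 915 and 627 in cKO retina at ZT6, against 316, 211 and 197 in control retina at ZT6. Every cKO pool was above every control pool, and the difference was 1.42 ± 0.27 (adjusted p = 0.0016). It was 1.11 with arrays centred and 1.09 after quantile normalisation. Kcnf1 and Kcns2, also silent subunits, rose by 0.87 and 0.77 (adjusted p = 0.0183 and 0.0241). Kcnf1 was at 270, 353 and 294 in cKO retina, against 162, 118 and 209 in control retina. Kcns2 was at 268, 285 and 298 in cKO retina, against 204, 130.1 and 151 in control retina. Their pools did not overlap, but neither was called when arrays were centred or quantile-normalised. Kcnv2, the silent subunit of photoreceptors, averaged 560.3 in cKO retina and 490.5 in control retina at ZT6 and was not called (adjusted p = 0.511).

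Among the voltage-gated pores, Kcnd2 was at 792, 1007 and 761 in cKO retina at ZT6, against 533, 434 and 402 in control retina at ZT6. The difference was 0.88 ± 0.21 (adjusted p = 0.0075), and 0.57 with arrays centred and 0.55 after quantile normalisation. A further probe set of Kcnd2 above the array median on all 12 retina arrays gave 1.01. Kcna2, an axonal delayed rectifier, was at 1255, 2048 and 1283 in cKO retina, against 1008, 737 and 763 in control retina (0.83 ± 0.22, adjusted p = 0.0128). Kcna2 gave 0.52 with arrays centred and 0.53 after quantile normalisation, and a second bright probe set gave 0.74. Kcnh1 was at 412, 547 and 516 in cKO retina, against 267, 196 and 323 in control retina (0.89 ± 0.25, adjusted p = 0.0178), with 0.58 centred and 0.56 quantile-normalised. In each of these 3 genes the groups did not overlap.

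The Shaker-type genes Kcna1, Kcna2, Kcna4, Kcna5 and Kcna6 were all called higher as deposited. Kcna5 was at 2433, 3092 and 2987 in cKO retina, against 1858, 1610 and 1789 in control retina (0.69 ± 0.13, adjusted p = 0.00188). Kcna1, Kcna4 and Kcna6 rose by 0.63, 0.54 and 0.69 as deposited. With arrays centred, Kcna1, Kcna4, Kcna5 and Kcna6 gave 0.32, 0.23, 0.38 and 0.38. Kcnc2 and Kcnd3, bright in control retina, rose by 0.37 and 0.36 as deposited and were at 0.06 and 0.05 with arrays centred. Of the accessory subunits, Kcnab1, which associates with the Kcna pores, rose by 0.47 and Kcne1l by 0.71 as deposited, with 0.16 and 0.40 centred. Kcnip3 averaged 362 in cKO retina and 246 in control retina and was not called (adjusted p = 0.185).

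Kcnk1, a leak channel of glia and neurons, was at 3582, 4447 and 3754 in cKO retina at ZT6, against 2437, 2028 and 2665 in control retina at ZT6 (0.72 ± 0.14, adjusted p = 0.00179). Its difference was 0.41 with arrays centred and 0.49 after quantile normalisation. Kcnma1 was at 2237, 2652 and 2274 in cKO retina, against 1573, 1529 and 1754 in control retina (0.55 ± 0.13, adjusted p = 0.00714), and its 4 other probe sets gave 0.36 to 0.79. With arrays centred Kcnma1 was at 0.24 (adjusted p = 0.265). Kcnj11, the pore of neuronal ATP-sensitive channels, rose by 0.73 (adjusted p = 0.0476) as deposited, with 0.42 centred.

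Kcnj14 was the single member to fall. It was at 5681, 5931 and 5290 in cKO retina at ZT6, against 6871, 6511 and 6440 in control retina at ZT6. All 3 cKO pools lay below all 3 control pools, and the difference was -0.23 ± 0.07 (adjusted p = 0.0338). It was -0.54 with arrays centred and -0.37 after quantile normalisation. The call was lost with no variance trend (adjusted p = 0.125) and with no filter (adjusted p = 0.053).

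**Figure D3:**
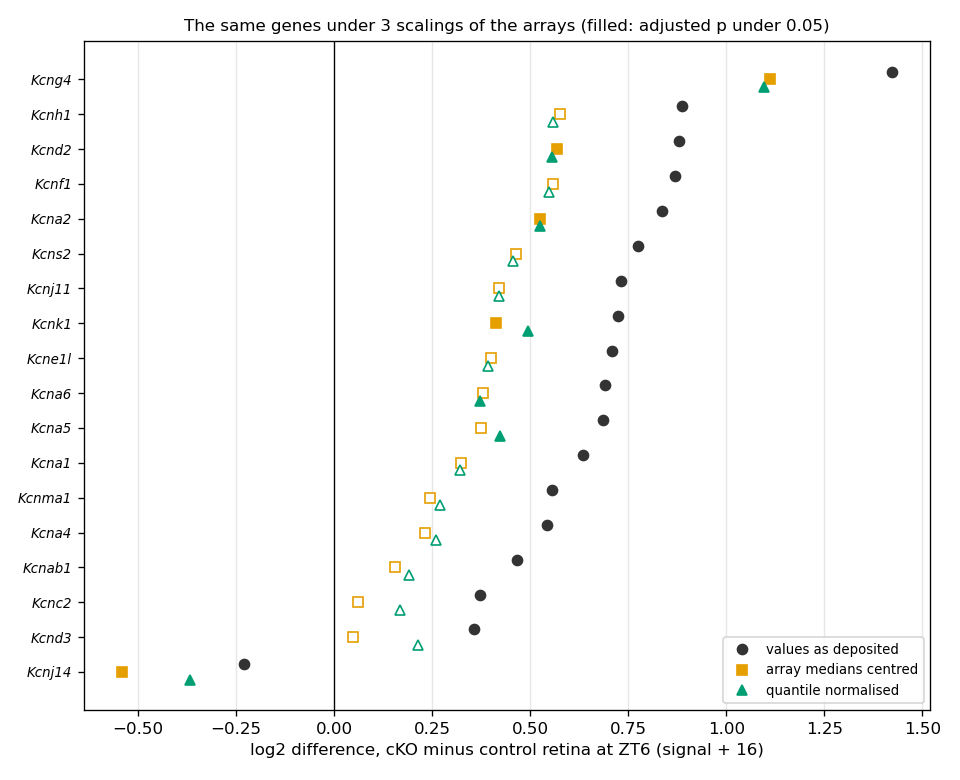
Difference between cKO and control retina at ZT6 for the 18 called members under 3 scalings (as deposited, array medians centred, quantile-normalised), on the log2 scale; filled points passed at an adjusted p under 0.05. Kcng4, Kcnd2, Kcna2, Kcnk1 and Kcnj14 are filled under all 3.

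Genes of other retinal cells moved in the same comparison. Of 7 Müller glia markers, 6 rose, with a summed signal of 42710 to 49393 in cKO retina and 29939 to 35087 in control retina, and 4 of 4 tested microglia markers rose (5221 to 9266 in cKO retina and 1416 to 1934 in control retina). The summed rod markers were at 57799 to 66921 in cKO retina and 61004 to 69530 in control retina, and 1 of 7 was called lower. Of 6 cone markers, 2 rose and 2 fell. Of 6 bipolar markers 1 rose, and of 8 amacrine and ganglion markers 2 rose. The part of these cells in the channel genes' differences was not tested. Of 12 channel partner proteins tested, 4 rose, among them Dpp10 (0.98), which joins the Kcnd pores, and Abcc9 (1.12), the sulfonylurea receptor of Kcnj8 channels. Of 11 potassium pumps and cotransporters tested, 6 rose and none fell, among them Slc12a4 (0.95) and Slc12a7 (0.83). The median was 0.401 for the partners, 0.493 for the pumps and cotransporters and 0.491 for the Müller glia markers. Of all genes tested, 22.8% were called higher, and their median was 0.286. The lists were read as deposited alone, so they carry the offset between the arrays. The counts leaned on single pools, and the share of all genes moved with them. Without control pool 2 of ZT6, 6 members were called and 8.91% of all genes were higher; without cKO pool 2, 8 and 8.67%; without cKO pool 3, 10 and 14.1%. Kcng4, Kcnd2, Kcnk1, Kcna4, Kcna5 and Kcnma1 were called whichever of the 6 pools was left out. Kcna2 was lost without control pool 2 or cKO pool 2, with an adjusted p of up to 0.0837, and so was Kcnf1, with up to 0.111. Kcnh1 was lost without control pool 2, cKO pool 2 or cKO pool 3, with an adjusted p of up to 0.106, and Kcns2 also without control pool 3, with up to 0.122. Kcnj14 was lost without any 1 of the control pools or cKO pool 3, with an adjusted p of up to 0.119.

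At ZT20 no member of 42 passed between cKO and control retina, where 6.5% of all genes tested were called; 3 members had an unadjusted p under 0.05, and the members' median was 0.188, against 0.118 for all genes. With arrays centred 1 member was higher and 2 were lower, where 4.15% of all genes were higher and 6.51% lower. After quantile normalisation 1 was higher and 1 lower, where 5.65% of all genes were higher and 4.69% lower. Kcng4, named after its values were seen, was at 690.2, 431 and 733 in cKO retina at ZT20, against 362.5, 262 and 389 in control retina at ZT20. These pools did not overlap, and the difference was 0.82 ± 0.27 (adjusted p = 0.0763). With arrays centred it was 0.62 (adjusted p = 0.0347) and after quantile normalisation 0.66 (adjusted p = 0.022). Kcnj14 was at 5760, 6221 and 6523 in cKO retina, against 7551, 7086 and 7016 in control retina (-0.23 ± 0.07, adjusted p = 0.0783). Here too the pools did not overlap; the difference was -0.44 (adjusted p = 0.0316) with arrays centred and -0.27 (adjusted p = 0.0179) after quantile normalisation. Kcnv2 averaged 581 in cKO retina and 567 in control retina at ZT20. No member passed the test of the difference between the cKO effects at ZT20 and ZT6 in the retina (0 of 42, with 0% of all genes called and 4 members at an unadjusted p under 0.05), so an effect present at ZT6 and absent at ZT20 is not shown.

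In the pineal gland at ZT6, 3 of 25 members passed between cKO and control: Kcnk1 and Kcnh1 were higher and Kcnq1ot1 was lower. Of all 11984 genes tested, 1.8% were called, 0.701% higher and 1.1% lower. The median difference was 0.042 for the members and 0.025 for all genes. Kcnk1 was at 3539, 4249 and 3444 in cKO pineal gland at ZT6, against 1585, 2813 and 2157 in control pineal gland at ZT6. The pools did not overlap, and the difference was 0.80 ± 0.17 (adjusted p = 0.00153); a second Kcnk1 probe set gave 1.12. It did not pass after quantile normalisation (0.76, adjusted p = 0.14) or without control pool 1 (adjusted p = 0.22). Kcnh1 was at 762, 859 and 711 in cKO pineal gland, against 340.5, 510.4 and 496 in control pineal gland (0.79 ± 0.20, adjusted p = 0.0147). Without control pool 1 the Kcnh1 call was lost (adjusted p = 0.294), as it was without cKO pool 2.

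Kcnq1ot1 was at 1209, 861 and 1435 in cKO pineal gland at ZT6, against 2047, 1916 and 2347 in control pineal gland at ZT6. The groups did not overlap, the difference was -0.86 ± 0.18 (adjusted p = 0.000833), and all 6 of its probe sets were lower. It was called under all 3 scalings and lost without cKO pool 2 (adjusted p = 0.0722). With arrays centred, 9 members were higher and 1 lower, where 33.6% of all genes were higher and 1.21% lower. After quantile normalisation 2 were higher and 1 lower, where 0.617% of all genes were higher and 1.21% lower. Without the filter on dim genes, or without the trend in variance, 1 of the 3 members (Kcnq1ot1) was called. Of 8 choroid plexus markers 5 rose, with a summed signal of 39691 to 43862 in cKO glands and 29454 to 35988 in control glands at ZT6, and 5 of 5 tested neutrophil markers fell; their part in these differences was not tested.

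At ZT20 no member of 25 passed between cKO and control pineal gland, where 0.951% of all genes were called; 7 members had an unadjusted p under 0.05, and the median was -0.193 for members and -0.15 for all genes. Kcnq1ot1, named after its values were seen, was at 1448, 1303 and 1400 in cKO pineal gland at ZT20, against 2124, 2132 and 1979 in control pineal gland at ZT20. Its pools did not overlap, and the difference was -0.58 ± 0.18 (adjusted p = 0.0892). Without cKO pools 2 and 3, in which Neurod1 kept 52.4% and 26.5% of its control mean, 4 members were called lower: Kcna2 (-1.39), Kcna4 (-1.26), Kcnj8 (-0.998) and Kcne4 (-0.72). In that fit 4.86% of all genes were lower and their median was -0.353. That leaves 1 cKO pool, which is assumed to vary like the other groups. In the full set, 4 of 6 fibroblast markers and 3 of 6 endothelial and mural markers were lower in cKO pineal gland at ZT20, and so was Abcc9 (-0.80, adjusted p = 0.022), the partner of Kcnj8. The difference between the cKO effects at ZT20 and ZT6 passed for 0 of 25 members, where 0.242% of all genes passed and 5 members had an unadjusted p under 0.05.

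The pineal gland changes its transcripts over the day, and 3 of 25 members passed between ZT20 and ZT6 in control glands: Kcnk15 and Kcnip2 rose and Kcng4 fell. Of all genes 8.26% were called, 5.13% higher and 3.13% lower at ZT20. All 3 members were called under every scaling. Their promoters, as RefSeq gives them on GRCm38.p6 from 250 bases before the start to 50 bases after it, are shown because these are the members called under every scaling; each runs 5′ to 3′ on the gene's strand. Capitals mark TAATCC, a core bound by Crx-type homeodomain proteins, and 2 E-boxes of the kind bound by basic helix-loop-helix proteins such as NeuroD1, the first spelled CAGATG and the second CAGCTG. Kcng4 lies at chr8:119635631-119635930 on the minus strand, Kcnk15 at chr2:163853500-163853799 on the plus strand and Kcnip2 at chr19:45816014-45816313 on the minus strand. The Kcnip2 window lies within the gene's RefSeq span, which reaches 45816422, so its start is not the gene's outermost start.
Kcng4: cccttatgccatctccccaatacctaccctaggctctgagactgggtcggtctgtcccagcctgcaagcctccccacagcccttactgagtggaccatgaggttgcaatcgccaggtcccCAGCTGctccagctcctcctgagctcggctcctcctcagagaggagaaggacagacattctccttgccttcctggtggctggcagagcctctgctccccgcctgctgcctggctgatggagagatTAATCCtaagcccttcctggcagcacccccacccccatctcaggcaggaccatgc
Kcnk15: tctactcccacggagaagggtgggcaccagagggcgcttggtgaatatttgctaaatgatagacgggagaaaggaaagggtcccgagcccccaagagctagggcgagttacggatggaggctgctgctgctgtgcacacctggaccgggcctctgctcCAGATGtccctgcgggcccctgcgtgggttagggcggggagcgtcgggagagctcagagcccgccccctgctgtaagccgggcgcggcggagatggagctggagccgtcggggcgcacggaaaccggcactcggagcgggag
Kcnip2: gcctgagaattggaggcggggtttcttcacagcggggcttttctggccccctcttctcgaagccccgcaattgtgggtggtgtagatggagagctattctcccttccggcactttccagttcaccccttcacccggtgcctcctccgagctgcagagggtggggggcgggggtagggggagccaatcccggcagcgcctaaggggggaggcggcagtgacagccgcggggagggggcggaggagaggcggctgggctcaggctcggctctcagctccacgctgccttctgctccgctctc

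The Kcng4 window holds TAATCC at 5 bases before the start and CAGCTG at 130 bases before it, the Kcnk15 window holds CAGATG at 92 bases before the start, and the Kcnip2 window holds none of the letters searched. Both strands were searched for the homeodomain core, for each of the E-boxes (of which CAGCTG is a palindrome) and for the cAMP response element, spelled TGACGTCA and also a palindrome. The matches in these windows do not overlap one another. Among 32851 RefSeq windows of this length, 7.06% held the homeodomain core, 17.2% the first E-box, 16.3% the second and 1.79% the cAMP response element. The 60 members matched have 84 windows: 2 of them (2.38%, Kcng4 and Kcnj9) held the homeodomain core, 18 (21.4%) the first E-box, 23 (27.4%) the second and 0 the cAMP response element. A match is a run of letters in this window and says nothing of binding.

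Kcng4 was at 152, 227 and 195 in control pineal gland at ZT20, against 414, 510.5 and 324 in control pineal gland at ZT6. The groups did not overlap, and the difference was -1.06 ± 0.22 (adjusted p = 0.000266). Kcnk15, a leak channel gene, was at 153, 150.2 and 209 at ZT20, against 54.1, 105.5 and 61.5 at ZT6 (1.09 ± 0.26, adjusted p = 0.00211). It is dim, above the array median on 4 of the 12 pineal arrays, all of ZT20, so it passed the filter through the time where it is high; with no filter it was called (adjusted p = 0.024), and without control pool 1 of ZT6 its adjusted p was 0.0523. Kcnip2, a calcium-binding subunit of the Kcnd pores, was at 265.5, 287 and 343 at ZT20, against 159, 209 and 169.5 at ZT6 (0.69 ± 0.22, adjusted p = 0.0287). Without the filter on dim genes Kcnip2 was not called (adjusted p = 0.0702), nor was it without control pool 1 or 3 of ZT6 or control pool 3 of ZT20 (up to 0.178). Kcng4 was called whichever pool was left out. Dpp10, another partner of the Kcnd pores, fell by 1.68 on the log2 scale (adjusted p = 6.9e-07). Of 6 rod markers, 4 were lower at ZT20. This list does not read rods alone in the gland: its summed signal was at least 15325 in every control pool at ZT6, with Gnat1 at 72.6 in pool 1. Gnat1 itself was uneven between the pineal pools at both times. The part of retinal RNA in the Kcng4 difference was not tested.

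In cKO pineal gland 4 of 25 members passed between ZT20 and ZT6, all lower at ZT20, where 11.2% of all genes were called, 8.34% lower. Kcng4 was at 148, 193 and 225 in cKO pineal gland at ZT20, against 348, 399 and 248 in cKO pineal gland at ZT6 (-0.76 ± 0.22, adjusted p = 0.0138). The groups did not overlap, as in control glands, but Kcng4 was not called here with no filter (adjusted p = 0.0716). Kcnab1 was at 2241, 2397 and 2833 at ZT20, against 3785, 3527 and 3553 at ZT6 (-0.54 ± 0.14, adjusted p = 0.00374). Kcnu1, a pore known from mouse sperm, passed the filter only through the 3 cKO pools of ZT6, the group where it is high, so its call is no support, and with no filter it was not called (adjusted p = 0.071). It was at 47.8, 55.7 and 108 at ZT20, against 133, 116 and 123 at ZT6 (-0.76 ± 0.27, adjusted p = 0.0489). Kcnd3 was at 6587, 6783 and 8043 at ZT20, against 8462, 8447 and 8105 at ZT6 (-0.23 ± 0.08, adjusted p = 0.0454). It was not called with arrays centred (-0.15, adjusted p = 0.195) or with no filter (adjusted p = 0.13). Without cKO pools 2 and 3 of ZT20, 9 members were called lower, where 23.2% of all genes were lower and their median was -0.351. Beside these values, 4 of 6 tested rod markers (median -0.823) and 2 of 8 choroid plexus markers were lower at ZT20 in cKO glands. The rod list does not read rods alone in the gland, and the part of either list was not tested. Without cKO pool 1 of ZT6, cKO pool 2 of ZT6 or cKO pool 1 of ZT20, 1 member (Kcnab1) was called. Kcng4 had an adjusted p of up to 0.129 in those cases, and Kcnu1 and Kcnd3 were each lost in 5 of 6 cases, with up to 0.315 and 0.275.

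**Figure D4:**
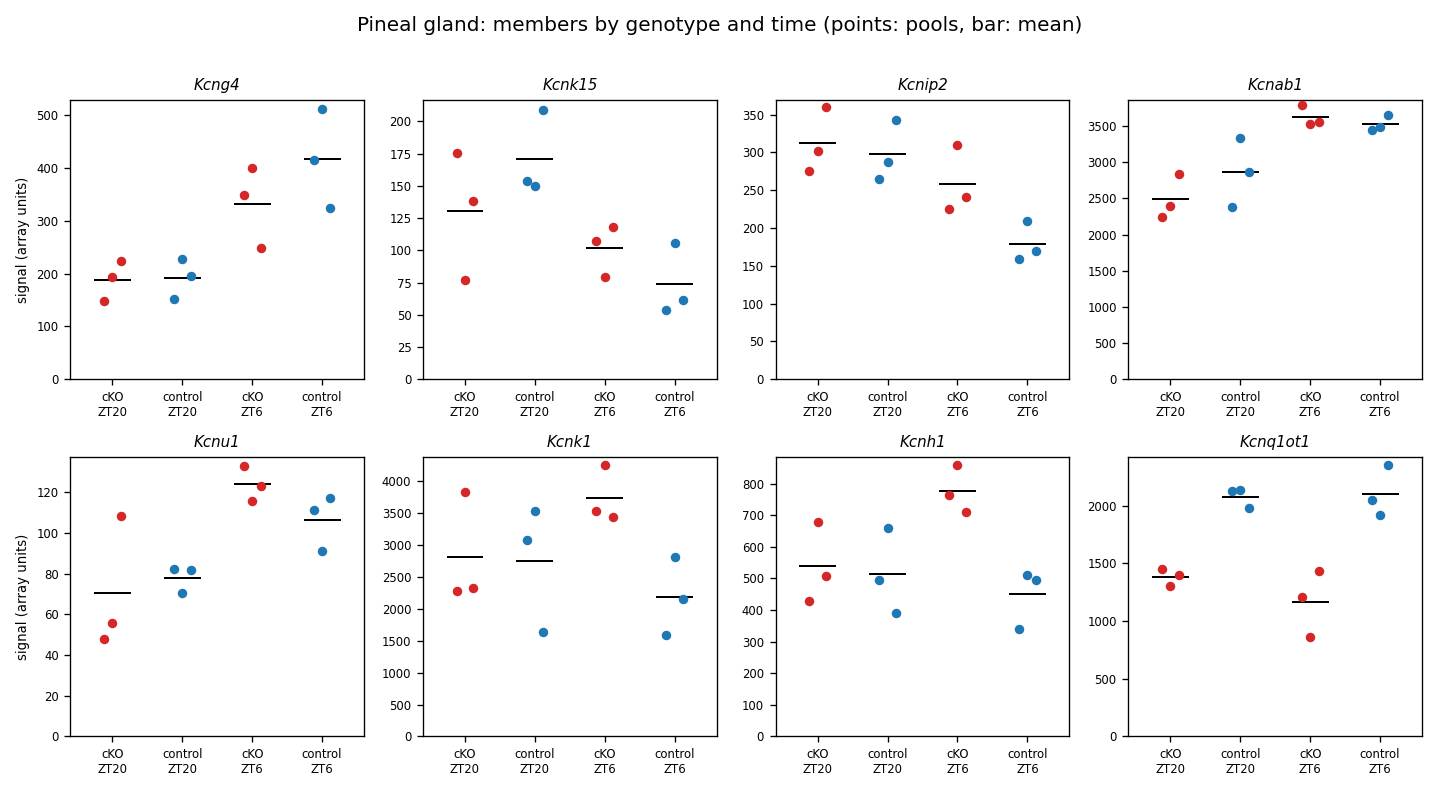
Signal (linear axis, a panel per gene) of Kcng4, Kcnk15, Kcnip2, Kcnab1, Kcnu1, Kcnk1, Kcnh1 and Kcnq1ot1 in the pineal pools, each pool a point, in the order cKO ZT20, control ZT20, cKO ZT6, control ZT6. Kcng4 is lower at ZT20 than at ZT6 in both genotypes, and Kcnq1ot1 is lower in cKO than in control glands at both times, with the ZT20 difference not called (adjusted p = 0.0892).

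In the retina no member passed between ZT20 and ZT6, neither in cKO retina (0 of 42, where 0.0511% of all genes were called; 1 member at an unadjusted p under 0.05) nor in control retina (0 of 42, where 0.102% were called; 9 members at an unadjusted p under 0.05). The median difference in control retina was 0.240 for the members and 0.096 for all genes. Kcnma1 was at 2299, 2367 and 2962 in control retina at ZT20, against 1573, 1529 and 1754 at ZT6, without overlap (0.64 ± 0.13, adjusted p = 0.0702). After quantile normalisation Kcnma1 and Kcna5 were called in control retina (0.52 and 0.41), where 1.23% of all genes were called. Retinal Kcng4 showed no such day-night call in either genotype.

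Whether loss of NeuroD1 acted differently on the members in the retina and in the pineal gland was tested as the difference between the tissues' cKO effects, averaged over both times. It passed for 11 of 47 members, each with the more positive effect in the retina, where 20.9% of all genes tested passed, 20.2% in that direction. The median was 0.340 for the members and 0.270 for all genes. The direction depends on the scaling: with arrays centred 3 members were higher and 5 lower, where 5.6% of all genes were higher and 35.1% lower. After quantile normalisation 3 were higher and 3 lower, where 8.69% of all genes were higher and 7.23% lower. In the same contrast 6 of 6 microglia markers (median 2.211) and 5 of 7 Müller glia markers were higher; their part was not tested. As deposited, the 11 were 4 voltage-gated pores, 2 silent subunits, 2 sodium-activated pores, 1 leak channel, 1 accessory subunit and the RNA gene Kcnq1ot1. Kcnk6, Kcng4 and Kcnt2 passed under all 3 scalings.

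Kcnk6 had a difference of 1.33 ± 0.26 (adjusted p = 0.000506), 0.81 with arrays centred and 0.90 after quantile normalisation. In the retina it was at 68.5, 27.6 and 31.4 in cKO pools at ZT20, against 14, 14.7 and 14.9 in control pools at ZT20, and at 36.5, 69.2 and 50.9 in cKO pools at ZT6, against 17.6, 20.8 and 14 in control pools at ZT6. The retinal pools did not overlap at either time, but all of these values lay below the array medians, and Kcnk6 was not tested in the retina alone. In the pineal gland it was at 82.2, 90.9 and 118 in cKO pools at ZT20, against 89.9, 183.4 and 167 in control pools at ZT20, and at 121, 116 and 86 in cKO pools at ZT6, against 120.1, 134 and 151 in control pools at ZT6. Pineal pools overlapped at both times. Kcnk6 was above the array median on 3 of the 24 arrays, the fewest the filter allows. These were control pineal pools 2 and 3 of ZT20 and cKO pineal pool 2 of ZT6. It thus passed the filter mainly through control pools where it is high, which bears on this contrast. With no filter it was called (adjusted p = 0.000627, limma).

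Kcng4 had a difference of 1.29 ± 0.25 (adjusted p = 0.000509), 0.77 with arrays centred and 0.88 after quantile normalisation. Kcnt2 had a difference of 1.01 ± 0.20 (adjusted p = 0.000539), 0.49 with arrays centred and 0.59 after quantile normalisation. In the retina Kcnt2 was at 144, 117 and 131 in cKO pools at ZT20, against 92.1, 75.6 and 89.9 in control pools at ZT20, and at 101, 150.2 and 116 in cKO pools at ZT6, against 78.2, 62.8 and 69.8 in control pools at ZT6. The cKO pools were higher at both times, at levels too dim for the retinal test. Kcnq5, which encodes a pore of the slow M-type current, is dim, above the array median on 6 of the 24 arrays. Kcna2 and Kcnq5 had differences of 0.97 ± 0.26 and 0.96 ± 0.25 (adjusted p = 0.00751 and 0.00712) as deposited, and 0.44 each with arrays centred (adjusted p = 0.104 and 0.138). Kcnab1 and Kcnd3 passed as deposited but had the opposite sign with arrays centred (-0.08 and -0.22), so their direction rests on the scaling. Kcng4, Kcnt2, Kcna2 and Kcnq5 passed whichever of the 24 arrays was left out, while Kcna1 and Kcnf1 were lost in 16 and 14 of these 24 cases. Kcnk6 passed in these cases too, but the filter was not redone. Leaving out any of the 3 arrays where Kcnk6 is above the median thus could not remove it from the test.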

How the data were processed

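The deposited table holds 1 value per probe set and array. The authors deposited linear intensity values; the submitters' processing notes name GCOS, and its version and scaling are not given in the sources used here. Array medians differ, so no common scaling is assumed. Probe sets were named from GEO's platform annotation, and of several probe sets for a gene the one brightest on average across the 24 arrays was used. Signals were used as log2(signal + 16) with limma 3.58.1 in R 4.3.3 (variance trend, Benjamini-Hochberg over all genes tested): 1 fit of 12 arrays per tissue, and 1 of 24 for comparisons between tissues. A gene was tested where it was above the array median on at least 3 arrays of the fit. The number of arrays limits the precision. Beyond what the labels state of pools, p-values measure the spread between pools, moderated toward a variance trend shared by all genes. The prior degrees of freedom were 103.6 in the pineal fit, 9 in the retina fit and 12.5 in the fit of both tissues. Pineal p-values thus rest mainly on the shared trend and little on a gene's own spread. With no variance trend, Kcnk1 and Kcnh1 in the pineal gland at ZT6 had an adjusted p of 0.354 and 0.163 (limma).

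Each comparison names the called members whose pools do not overlap (for differences between effects, all called members), up to 6 per direction, together with Kcnv2, Kcnj14, Kcnh1, Kcnma1 and Kcnip3, and, between tissues, the 6 members with the highest mean in each tissue. The members and the lists of markers, partners and pumps were chosen with earlier results of these data known. Kcnk1, Kcna1, Kcna4, Kcna5, Kcna6, Kcnab1, Kcnc2, Kcnd3, Kcne1l and Kcnj11 in the retina, and Kcng4 and Kcnq1ot1 at ZT20, were added after their values were seen. Between tissues, Kcnj5, Kcnd1, Kcna4 and Kcnc4 were also named outside this rule and were not followed under the alternatives. Alternatives changed the scaling, pseudocount, filter, variance trend, probe set, replicate block and pools. Where pools were left out, the filter still used all arrays of the fit. Same-numbered pools deviated together in cKO and control pineal gland at ZT6 (r = 0.196, 0.355 and 0.322 across genes, which are not independent) and not in every pair elsewhere. Between cKO and control at ZT20, r was 0.201, 0.114 and 0.067 in the pineal gland and 0.175, 0.284 and 0.042 in the retina. The labels name no pairing of pools. The test was checked on simulated data.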

Additional observations from a re-analysis of the deposited data

Results flagged for a closer look

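The cKO effect differed between retina and pineal gland in 11 of 47 members, where 20.9% of all genes passed. The test was a contrast of the 2 effects in the fit over both tissues. Each of the 11 had the more positive effect in the retina as deposited, where 20.2% of all genes passed in that direction. With arrays centred 3 members were higher and 5 lower, where 5.6% of all genes were higher and 35.1% lower. After quantile normalisation 3 were higher and 3 lower, where 8.69% of all genes were higher and 7.23% lower. The differences on the log2 scale were 1.33 for Kcnk6, 1.29 for Kcng4, 1.01 for Kcnt2, 0.97 for Kcna2, 0.96 for Kcnq5 and 0.83 for Kcnt1. They were 0.70 for Kcnq1ot1, 0.69 for Kcnf1, 0.56 for Kcna1, 0.44 for Kcnab1 and 0.31 for Kcnd3. The adjusted p lay between 0.000506 (Kcnk6) and 0.0436 (Kcna1), and the median of all genes in the same contrast was 0.270. For Kcnt1 the cKO pineal pools were at 45.5, 46.6 and 32.3 at ZT20, against 67.4, 57.1 and 64.2 in control pineal pools at ZT20, and at 42.8, 49.2 and 35.9 at ZT6, against 92, 92.5 and 81.9 in control pineal pools at ZT6. All of these pineal Kcnt1 values lay below the array medians.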

How the results depend on the processing

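Pseudocounts of 1 and 64 and avoiding probe sets that end in _x_at kept every count of called members within 1.5 times. With arrays centred, 10 members were called between cKO and control in the pineal gland at ZT6, 5 in the retina at ZT6, 3 in the retina at ZT20 and, for the retina-minus-pineal difference of cKO effects, 8 (3 higher, 5 lower). In the same order, 34.8%, 13.4%, 10.7% and 40.7% of all genes were called. Quantile normalisation gave 7 in the retina at ZT6, 2 at ZT20, 5 between times in control pineal gland, 2 between times in control retina and 6 (3 higher, 3 lower) for the difference of effects. The shares of all genes called were 16.7%, 10.3%, 25.8%, 1.23% and 15.9%, in that order. No filter gave 1 in the pineal gland at ZT6 and 2 between times in cKO pineal gland, and no variance trend gave 1 in the pineal gland at ZT6. Of the 4 members called between times in cKO pineal gland with the filter, Kcnab1 alone stayed without it (adjusted p = 0.0131, limma). Without cKO ZT20 pools 2 and 3, counts were 4 in the pineal gland at ZT20, 9 between times in cKO pineal gland and 2 for the pineal difference of effects (Kcna4 and Kcnk1, lower). Without pool 3 of both pineal ZT6 groups, chosen after seeing the data, 2 were called between times in cKO pineal gland. Leaving out 1 pool at a time gave 1 to 3 and 0 to 2 (pineal cKO effect, ZT6 and ZT20), 1 to 4 and 1 to 6 (times, control and cKO pineal gland), 0 to 1 (pineal difference of effects), 6 to 21 and 0 to 1 (retina cKO effect, ZT6 and ZT20), 0 in the 3 other retinal comparisons, 8 to 13 (difference of effects between tissues) and 43 to 44 (control tissues). The replicate block, which treats same-numbered pools as matched though the labels name no such pairing, left the 3 pineal calls at ZT6. The block gave 1 call in the pineal gland at ZT20 (Kcnq1ot1, adjusted p = 0.033), 6 between times in cKO pineal gland and 14 in the retina at ZT6. Reversed values were those of Kcnab1 (-0.0844) and Kcnd3 (-0.22) with arrays centred, in the difference of effects between tissues. Over the differences of named members, 1089 of 1266 values under an alternative stayed on the same side of the threshold with the same direction, 166 were no longer past it, 9 newly passed and 2 reversed; members fixed by name that did not pass are described by their levels and were not followed in this way, a limit set after their values were seen. The cause of these changes was not tested.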
